A study of Mus musculus with 4 samples.

Results

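The vascular nuclei of the lateral septum (LS) are the nuclei of blood vessel cells, and they were the rarest class examined in these single-nucleus RNA sequencing data, with 81 nuclei among 55660. They were chosen by a rule on measured RNA: a nucleus with 200 to 6000 detected genes and less than 2% mitochondrial UMIs (unique molecular identifiers, each standing for 1 counted RNA molecule) had to hold at least 4 UMIs of Flt1, Cldn5, Slco1a4, Adgrl4, Rgs5 and Pdgfrb, from at least 2 of these 6 genes, amounting to at least 0.3% of all its UMIs. The mice were male and 6 to 8 weeks old by the sample labels, while the paper states that they were bought at 8 weeks. LS tissue of 3 pooled mice went into each of 4 libraries. Of these, 2 were from C57J mice (C57J 1 in batch 1 and C57J 2 in batch 2), and nude and BALB/c mice gave 1 each (both in batch 2). Nude mice lack T cells, carry their Foxn1 defect on the BALB/c background and are therefore grouped with BALB/c mice below as the BALB/c background; C57J mice are the wild-type strain they are compared with. No mice were given a treatment in these libraries, and since each nude or BALB/c value comes from a single pool, the spread between mice of these groups was not measured.

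Brain capillaries are lined by endothelial cells whose tight junctions and transporters form the blood-brain barrier. Mural cells, the pericytes of capillaries and the smooth muscle cells of larger vessels, sit on the outside of this tube and share its basement membrane. Endothelial cells send PDGF-B to the receptor Pdgfrb on pericytes, astrocytes and neural progenitors send Wnt ligands that keep the barrier programme on, and VEGF acts through the receptors Kdr and Flt1. Cldn5 encodes claudin-5, the main tight junction protein of the barrier, Slco1a4 an organic anion transporter, Adgrl4 an endothelial adhesion receptor, and Rgs5 a regulator of G protein signalling in pericytes.

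The promoters of Cldn5 and Flt1 are shown because these are the best known endothelial genes of the rule. Each stretch is the 250 bases before the RefSeq start of the gene (build GRCm38.p6), written 5′ to 3′ on the strand of the gene, with every GGAA or TTCC, the core letters bound by ETS factors such as Erg and Fli1, in capitals. The Cldn5 stretch lies at chr16:18776597-18776846 on the plus strand and the Flt1 stretch at chr5:147726012-147726261 on the minus strand.
Cldn5: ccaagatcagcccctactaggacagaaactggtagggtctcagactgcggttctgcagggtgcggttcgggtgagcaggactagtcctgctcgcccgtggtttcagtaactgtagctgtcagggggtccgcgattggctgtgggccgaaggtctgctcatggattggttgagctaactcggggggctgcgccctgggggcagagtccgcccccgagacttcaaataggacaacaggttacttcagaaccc
Flt1: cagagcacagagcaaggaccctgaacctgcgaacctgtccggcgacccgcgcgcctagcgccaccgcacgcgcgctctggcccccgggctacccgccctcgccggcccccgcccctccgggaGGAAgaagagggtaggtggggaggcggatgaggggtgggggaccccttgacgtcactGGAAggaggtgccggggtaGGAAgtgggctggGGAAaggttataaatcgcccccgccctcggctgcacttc
The Flt1 stretch held 4 such matches and the Cldn5 stretch 0. Among 32851 RefSeq promoters of the same length, 93.4% held at least 1 match and the median was 3. The longer ETS motif ACAGGAA was searched on both strands for the 15 genes with the largest fold over other nuclei in their lowest library. Of these, 12 had a promoter entry. ACAGGAA was found in at least 1 entry of 2 of the 12 (Lef1 and Ctla2a), and CCGGAAG in entries of 0 of them. Among all single promoters 7.20% held ACAGGAA and 6.91% CCGGAAG. Some genes have several entries, so the counts by gene and the shares by promoter are not alike. A match of letters is a description of these windows only.

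The selected nuclei stood far above the others in the genes that selected them, which is given as a description of the choice. Values are CPM, which is UMIs per 1000000 of the UMIs summed over the vascular nuclei of a library, and sets of 4 values run from C57J 1 and C57J 2 to nude and then BALB/c. UMIs were not scaled to gene length, so levels are compared between libraries and not between genes. Where the gene of a list with the most UMIs is named, this says which gene supplied most of the counted molecules of that list and not which is the most expressed. Flt1 (chromosome 5) reached 2600, 2487, 2194 and 3416 CPM, against 1.199, 0.660, 0.660 and 0.726 CPM in the other nuclei. Slco1a4 reached 3108, 2665, 3262 and 3824 CPM, and Adgrl4 1427, 1073, 1127 and 1305 CPM. Between the highest and the lowest library these endothelial genes differed by 1.56-fold, 1.43-fold and 1.33-fold. Cldn5 was at 586, 358, 119 and 497 CPM, with the nude value resting on 2 UMIs. Of the pericyte genes, Rgs5 was at 1192, 503.8, 1957 and 1704 CPM and Pdgfrb at 235, 146, 59.3 and 228 CPM. In nude, 27 of the 33 Rgs5 UMIs came from 1 nucleus, and the Pdgfrb value rests on 1 UMI. Pdgfrb was also found outside the vascular nuclei, as the other nuclei held 5.62, 5.40, 5.61 and 9.18 CPM and the nuclei selected as astrocytes by a rule of the same form 62.0, 72.5, 20.8 and 85.0 CPM.

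**Figure D1:**
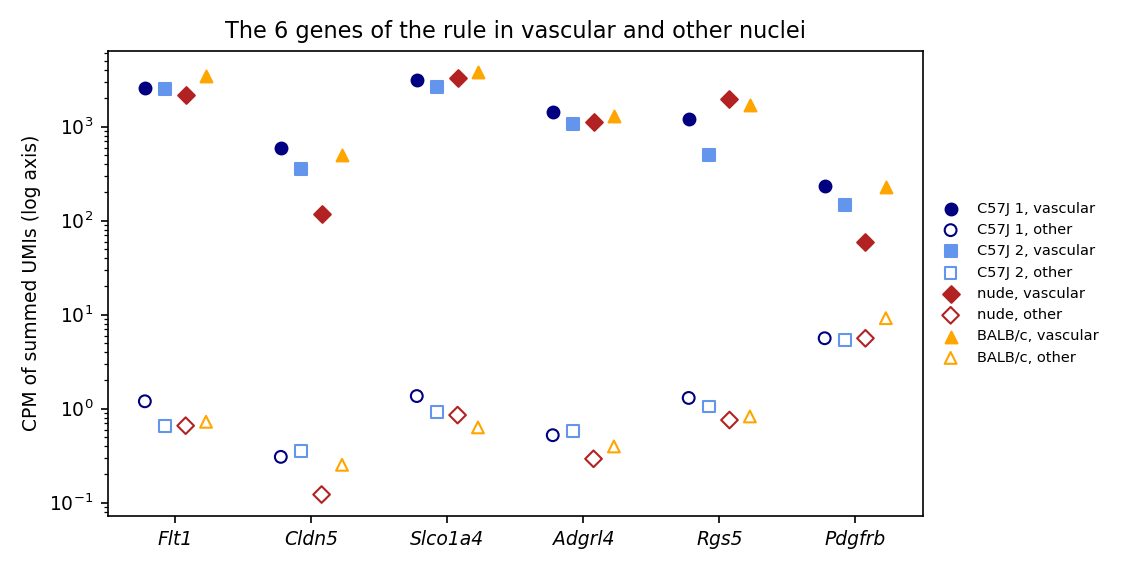
Levels of the 6 genes of the rule (x axis) in CPM of summed UMIs (y axis, log axis), for the vascular nuclei (filled symbols) and all other nuclei (open symbols) of each of the 4 libraries. The filled symbols of every gene lie above its open symbols, and the open symbols of Pdgfrb lie at 5.40 to 9.18 CPM.

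The limits of the rule were not sharply populated. Of the 81 nuclei, 55 held at least 10 UMIs of the 6 genes, 3 held 4 UMIs and 4 held 5 UMIs. Just inside the share limit lay 12 nuclei with 0.3 to 0.4% of their UMIs, and just outside it 20 nuclei with 0.2 to 0.3%. A further 24 nuclei met the UMI limits at less than 0.2%, and 1 nucleus had enough UMIs but of 1 gene. The mitochondrial limit alone left out 9 barcodes, all of them in C57J 1, a library in which 2161 barcodes exceeded that limit against 16, 18 and 263 in the others.

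Vascular nuclei made up 14 of 14836 nuclei in C57J 1, a share of 0.0944% with an exact (Clopper-Pearson) 95% interval of 0.0516 to 0.158%. C57J 2 held 32 of 14074 (0.227%, 0.156 to 0.321%), nude 9 of 14670 (0.0614%, 0.0281 to 0.116%) and BALB/c 26 of 12080 (0.215%, 0.141 to 0.315%). The shares did not separate the backgrounds: C57J 2 and BALB/c were high, and C57J 1 and nude were low. The 2 C57J libraries differed by 2.41-fold, and the nude and BALB/c libraries by 3.51-fold, whereas the mean shares of the backgrounds were 0.161% for C57J and 0.138% for the BALB/c background. With 2 libraries against 2 an exact permutation test cannot fall below 0.05, so no test of the shares was made. The intervals cover counting error only. The order depended on how doublets were treated: with predicted doublets removed the shares were 0.0765, 0.016, 0.0695 and 0.00916%, so that C57J 2 and BALB/c became the lowest. The caller marked 59 of the 81 vascular nuclei against expected rates of 11.9, 11.3, 11.7 and 9.66% of all nuclei. How far it can be relied on in this class, and which order is nearer to the tissue, was not tested. Within batch 2, with all nuclei kept, the single C57J library was within the interval of BALB/c and above that of nude. Fewer vessel nuclei in the tissue and fewer recovered from it cannot be told apart in these shares.

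**Figure D2:**
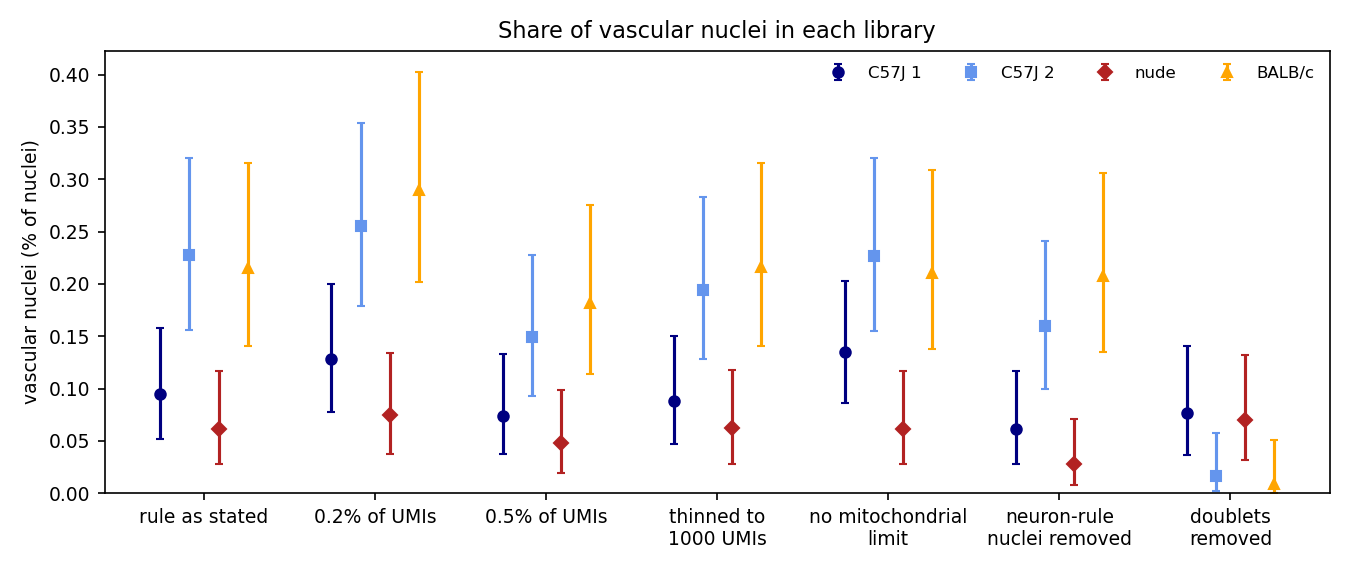
Share of vascular nuclei in percent of all nuclei within the quality limits (y axis) for the 4 libraries under the rule as stated and 6 other settings (x axis); points are the shares and bars the exact 95% intervals for counting error. C57J 2 and BALB/c lie above C57J 1 and nude in each setting shown except with predicted doublets removed, where they lie below.

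The vascular nuclei were shallow. Their median depth was 2675, 1630, 1447 and 2749.5 UMIs per nucleus, against 5855.5, 4443.5, 4888 and 8890.5 UMIs in the other nuclei of the same libraries. They also carried a higher median share of mitochondrial UMIs, at 1.59, 0.607, 0.896 and 0.960% against 0.489, 0.213, 0.245 and 0.306%. Their summed depth was 51157, 61527, 16861 and 122650 UMIs, so the nude library was the weakest, and 1 nucleus supplied 34.9% of its UMIs. No barcode was shared by vascular nuclei of different libraries.

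Genes that the rule did not name described the same cells. Among 3020 genes with at least 20 UMIs in vascular nuclei, 540 were more than 2-fold and 164 more than 10-fold above the other nuclei in each of the 4 libraries, which is a description and not a test, because the nuclei were chosen on this contrast. Of the 15 genes with the largest such lowest fold, 5 belonged to the rule. The other 10 were Abcb1a, Mecom, Zfp366, Foxf2, Ly6c1, Fn1, Lef1, Ctla2a, Cyyr1 and Xdh. Abcb1a encodes the efflux pump P-glycoprotein, and its level was 919, 618, 1068 and 946 CPM against 0.379, 0.467, 0.403 and 0.354 CPM in the other nuclei. Mecom, a zinc finger transcription factor of endothelial cells, was at 1505, 1316, 2016 and 2364 CPM, and Lef1, the transcription factor through which Wnt signals act, at 606, 601, 237 and 1101 CPM. Both were present in each library, as was Fn1, which encodes fibronectin, at 567, 293, 415 and 685 CPM.

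Endothelial genes were found in most of the nuclei, a balance that the rule, with 4 endothelial and 2 mural genes, partly fixed. A list of 16 endothelial markers that holds none of the rule genes summed to 5532, 4665, 7473 and 7150 CPM, which was 57.4, 46.5, 61.1 and 62.0 times its level in the other nuclei. All 16 were detected, 14 were higher than in the other nuclei in every library, and the gene with the most UMIs was Mecom. The adhesion molecule Pecam1 was at 176, 179, 415 and 285 CPM and the endothelial cadherin Cdh5 at 137, 32.5, 59.3 and 114 CPM. At least 2 of the 16 genes were found in 13 of 14, 30 of 32, 9 of 9 and 23 of 26 vascular nuclei. In oligodendrocyte nuclei, which should lack them and had median depths of 2579, 2080, 1938 and 3922 UMIs, the same was true of 0.496, 0.605, 0.248 and 0.231% of nuclei. In neurons, which were deeper (medians of 7483, 5909, 5970.5 and 12447 UMIs), it was true of 5.19, 4.31, 4.55 and 8.83%.

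Mural genes were present but rarely alone. A list of 16 mural markers summed to 5082, 2958, 2847 and 6482 CPM, 45.5, 21.6, 22.5 and 45.2 times the level in the other nuclei. Its gene with the most UMIs was Ebf1, a transcription factor, at 1877, 1316, 1542 and 2454 CPM. The pericyte ATPase Atp13a5 was at 586, 569, 534 and 1305 CPM, with the nude value resting on 9 UMIs of 1 nucleus. Vtn, the vitronectin gene of pericytes, was at 586, 195, 59.3 and 367 CPM, with 1 UMI in nude. Genes of smooth muscle were near absent, with 1 UMI of Acta2, 2 of Myh11 and 0 of Tagln in all 81 nuclei. A list of 12 contractile genes had a summed level 0.967, 0.893, 0.794 and 1.04 times that of the other nuclei, most of it Cacna1c, a calcium channel that neurons also use.

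When nuclei were split by whether Flt1 or Pdgfrb had more UMIs, 75 were endothelial (13, 30, 9 and 23 by library), 4 mural (1, 1, 0 and 2) and 2 undetermined. The split was less clean than these counts, because Flt1 was found in 78 nuclei. Rgs5 was detected in 35 nuclei and 32 of these also held Flt1. At 4 or more UMIs of each gene, 17 of the 20 nuclei with Rgs5 also had Flt1. With the marker lists, which are independent of both genes, 43 nuclei had at least 2 endothelial genes only, 5 at least 2 mural genes only, 32 both and 1 neither. By these lists, nuclei with both kinds of RNA were the rule among those with at least 2 mural genes, and pericytes could not be described on their own. Ebf1 of the mural list was found in 63 of the 81 nuclei, against 34 for Itga1, 25 for Atp13a5 and 22 for Vtn. How far the count of nuclei with both rests on Ebf1 was not tested. A caller of simulated doublets, forced to the expected rate, marked 59 of the 81 nuclei, in proportions of 4 of 14, 30 of 32, 0 of 9 and 25 of 26. Nearly all nuclei of C57J 2 and BALB/c were marked and none of nude, and whether the joint endothelial and mural RNA came from 2 cells in a droplet was not tested.

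**Figure D3:**
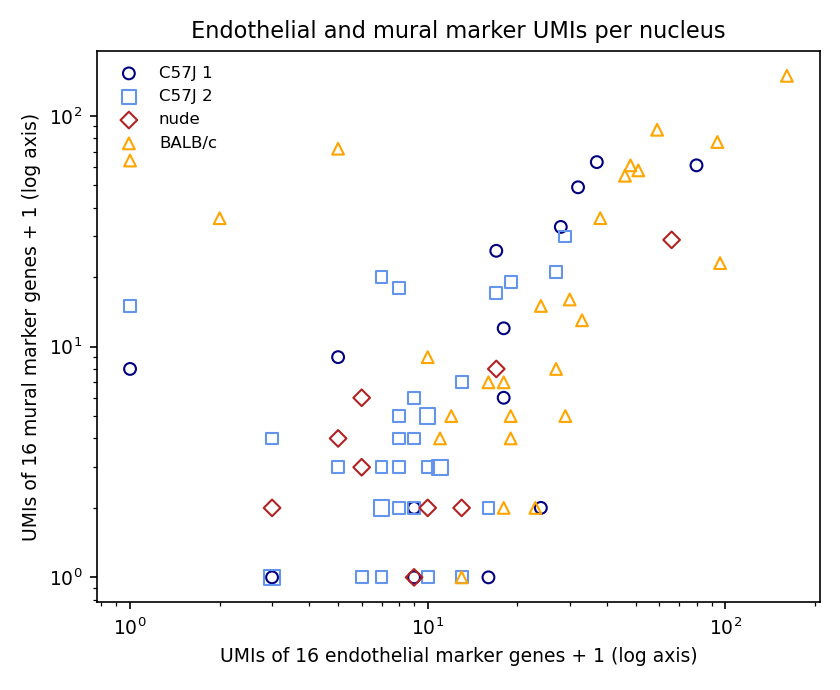
UMIs per vascular nucleus of 16 endothelial markers (x axis, UMIs + 1, log axis) and 16 mural markers (y axis, UMIs + 1, log axis), with 1 symbol shape per library and larger symbols where nuclei coincide. Most of the 81 nuclei lie along the rising diagonal or low on the y axis, and 5 nuclei hold at least 2 mural genes without 2 endothelial genes.

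Genes of the blood-brain barrier stood above the other nuclei. Without Slco1a4, the list of 17 barrier transporters summed to 8523, 7103, 11450 and 12340 CPM, which was 17.9, 14.96, 26.3 and 25.1 times the level in the other nuclei, and 16 of the 17 were higher in all 4 libraries. Slco1c1, a thyroid hormone transporter, was at 1095, 1056, 1957 and 1671 CPM, and Slc2a1, the glucose transporter GLUT1, at 958, 553, 1068 and 1533 CPM. Atp10a, a lipid flippase, was at 860, 1089, 1186 and 1957 CPM. In the summed level nude and BALB/c lay above both C57J libraries, as they did in 6 of the 23 lists with UMIs (the others being endothelial markers, junction genes, receptors, Notch and ephrin genes and PDGF genes), while in 2 lists both C57J libraries were above. For single genes the former order was found in 22.2% of those tested. The per-gene test is given with the comparison of backgrounds. The 14 junction genes other than Cldn5 stood less far above the other nuclei, at 3.28, 3.13, 4.15 and 4.40 times. Their member with the most UMIs was Tjp1, a junction scaffold found in many cell types, at 1173, 1284, 1898 and 1745 CPM.

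Signalling genes are described by how many stood above the other nuclei in all 4 libraries, which was so for 12.4% of the 13838 genes with a UMI in vascular nuclei and for 37.1% of the 3020 genes with at least 20 UMIs. The nuclei were chosen on this contrast, and the counts are not tested. In the Wnt list, 12 of 18 genes were higher in all 4 libraries (10 of the 13 with at least 20 UMIs). Among them were Lef1 and the Wnt inhibitor Apcdd1, the latter at 410, 228, 593 and 750 CPM. Among the VEGF, angiopoietin and TGF-beta receptors, without Flt1, 10 of 17 were higher in all libraries (8 of the 9 with at least 20 UMIs). Ptprb, an endothelial phosphatase that acts on the angiopoietin receptor, was at 1153, 894, 1957 and 1060 CPM, and Bmpr2, a BMP receptor, at 489, 488, 1008 and 1117 CPM. The ligand gene Pdgfb, through which endothelium recruits pericytes, was at 352, 179, 237 and 253 CPM. Notch1 was at 117, 179, 178 and 245 CPM, and 6 of 13 Notch and ephrin genes were higher in every library (3 of 3 with at least 20 UMIs). Of 21 vascular transcription factors 12 were higher in all libraries (12 of the 16 with at least 20 UMIs), among them Epas1, the hypoxia-regulated factor HIF-2 alpha, at 665, 423, 1068 and 1117 CPM, and Ets1 at 704, 439, 534 and 807 CPM. Of 14 basement membrane genes 9 were higher in all libraries (7 of the 8 with at least 20 UMIs), among them Sparc (684, 163, 297 and 481 CPM) and Lama2 (371, 309, 237 and 506 CPM).

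**Figure D4:**
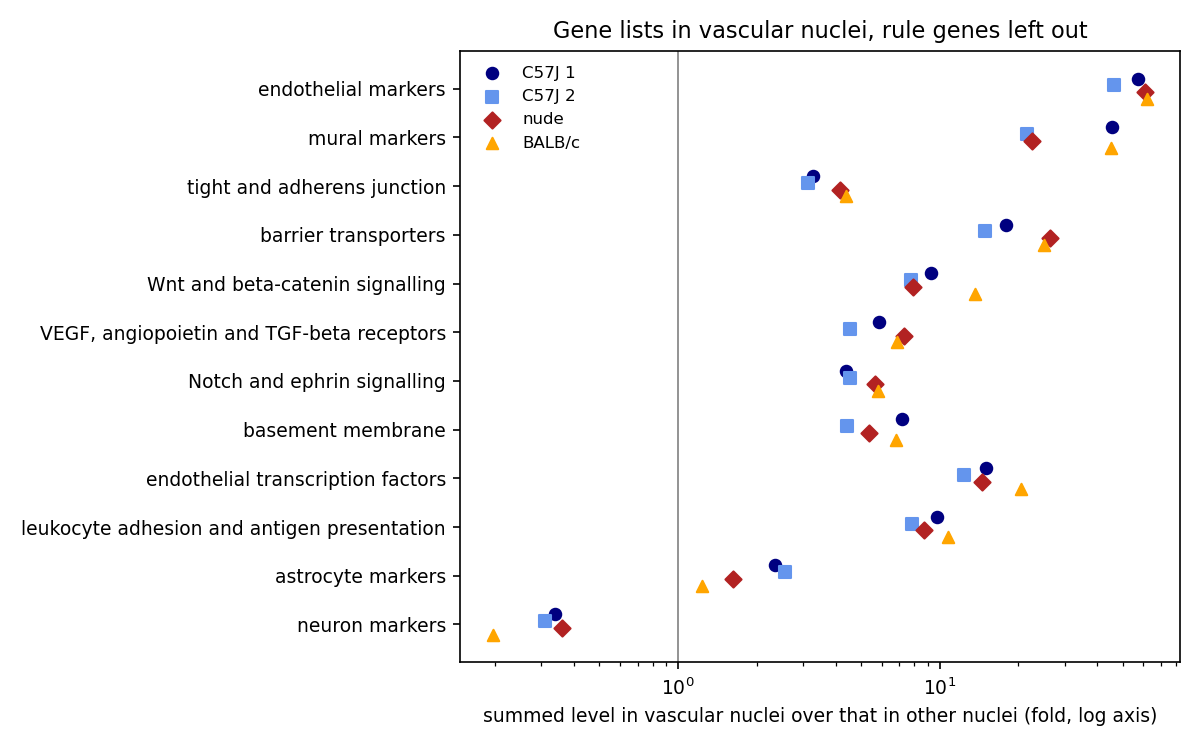
Summed level of 12 gene lists, rule genes left out, in vascular nuclei over that in other nuclei (x axis, fold, log axis) for the 4 libraries; the grey line marks equal levels. Endothelial markers lie at 46.5 to 62.0, mural markers at 21.6 to 45.5 and neuron markers below 1, at 0.196 to 0.361.

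Arterial and venous genes were too few to place the nuclei along the vessel tree. The 12 arterial markers gave 78 UMIs in all and the 10 venous markers 185, of which Flrt2, which other septal nuclei also hold, had the most UMIs, at 215, 439, 119 and 416 CPM. Mgp, an arterial gene, was at 58.6, 163, 178 and 97.8 CPM. Because nuclei were chosen on endothelial and mural genes, the data do not say how many other cells the vessel wall held. Perivascular macrophage markers (6 genes) and T and B cell markers (8 genes) had 0 UMIs in the vascular nuclei of every library, and the 10 fibroblast genes summed to 54 UMIs, mostly Cped1. The red cell list reached 2013 CPM in C57J 1 and 0, 0 and 8.15 CPM in the others, and the 56 UMIs of Hbb-bs and 29 of Hba-a1 behind it came from 1 nucleus.

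RNA of other cell types was also counted in these nuclei, and its amount differed between the libraries. The 8 neuron markers summed to 4848, 4242, 5338 and 2723 CPM, which was 30.03, 27.6, 33.2 and 16.3% of their level in neurons of the same library; the gene with the most UMIs was Meg3, and all 8 were detected. BALB/c was the lowest of the 4 and nude the highest, and the same held in the glia of these libraries, with 3125, 3163, 4093 and 1982 CPM in oligodendrocytes and 3710, 4778, 5271 and 2994 CPM in microglia, so this order was not found in vascular nuclei alone. The 8 astrocyte markers, with most UMIs from Slc1a2, were at 22.5, 22.3, 13.3 and 11.6% of their level in astrocytes, so that both libraries of the BALB/c background were lower than both C57J libraries. OPC markers, with most UMIs from Tnr, were at 5.63, 4.03, 6.63 and 1.74% of their level in OPCs. A nucleus could also pass a rule of the same form for neurons, and 21 of the 81 did (25.9%), namely 5 of 14, 10 of 32, 5 of 9 and 1 of 26. None passed the rule of astrocytes, oligodendrocytes, microglia or OPCs. Ependymal and choroid plexus markers gave 5 and 7 UMIs in all.

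C57J was then compared with the BALB/c background within vascular nuclei, to ask which genes of the vessel cells differ between the strains. The BALB/c background holds a library of mice without T cells and a library of mice with them, so this is no comparison of immune states. The sums of both C57J libraries were tested against those of nude and BALB/c with the quasi-likelihood test of edgeR. Calls needed a p below 0.05 after Benjamini-Hochberg adjustment and a log2 fold change beyond 0.5 in either direction. Of 1404 genes tested 1 was called, 0.0712% of them, while 125 had an unadjusted p below 0.05. In the other nuclei 315 of 20919 genes (1.51%) were called in the same comparison. DESeq2 called 0 genes in vascular nuclei, with 31 at an unadjusted p below 0.05. On simulated counts with the depth of the vascular sums, 62% of genes changed by 2 on the log2 scale and 11% of those changed by 1 were recovered. On counts simulated in the same way for the other nuclei (20919 genes) 61% and 2% were recovered. Both simulations used the same fixed spread between libraries, which was not estimated from the data. In the data the spread differed, as the SE of Dtna was 0.625 in vascular and 0.0857 in other nuclei. The simulations therefore cannot say whether the real tests of vascular and other nuclei recover changes equally well.

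The called gene was Cntn5 (chromosome 9), a contactin of neuronal membranes. Its level in vascular nuclei was 802, 585, 59.3 and 89.7 CPM, from 41, 36, 1 and 11 UMIs. Both C57J libraries were higher than both libraries of the BALB/c background, and Cntn5 was lower there by a log2 fold change of -3.07 (SE 0.54, adjusted p = 0.0288, edgeR quasi-likelihood test). In the other nuclei it was at 1096, 1042, 1103 and 835 CPM, with a log2 fold change of -0.13 (SE 0.15, adjusted p = 0.823, edgeR), but these are mostly neurons. Among glia Cntn5 was at 242, 261, 336 and 81.6 CPM in oligodendrocytes, at 154, 218, 334 and 68.3 CPM in astrocytes, at 268, 551, 456 and 152 CPM in microglia and at 199, 307, 295 and 73.5 CPM in OPCs. BALB/c was thus the lowest library in each class of glia too, while nude was within or above the values of C57J there and its low vascular value rests on 1 UMI. Cntn5 passed the filter on low counts (at least 177.5 CPM in 2 libraries) through the C57J libraries alone, in which it was high. Of the 50 genes that entered in this way, 25 had an unadjusted p below 0.05 and were lower in the BALB/c background, a direction that this way of entering favours. The call was lost without C57J 1 (adjusted p = 0.0905), which is the comparison within batch 2, without BALB/c (adjusted p = 0.672) and with RLE in place of TMM scaling (adjusted p = 0.0674). When every gene with a UMI was tested it was not called (adjusted p = 0.236, edgeR). The summed neuron markers are given above, and the part of neuronal RNA in the Cntn5 values was not tested. The Cntn5 UMIs of C57J 1 lay in few nuclei: 40 of the 41 were in the 5 nuclei that also passed the neuron rule. Without such nuclei Cntn5 had 1, 28, 1 and 9 UMIs (31.2, 601.7, 89.4 and 79.3 CPM), so that C57J 1 was the lowest library, C57J 2 alone was high, and the gene no longer passed the filter. Cntn5 was thus called only with these nuclei included.

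Among the lower genes whose libraries did not overlap between the backgrounds, the next by p were Dtna and Nxpe4. Dtna had a log2 fold change of -3.07 (SE 0.62, adjusted p = 0.0709, edgeR) and Nxpe4 of -3.12 (SE 0.69, adjusted p = 0.119, edgeR). Their levels are given with the interaction below. After them came Gabrg3, Luzp2 and Kcnb2. Luzp2 was at 1329, 520, 297 and 122 CPM, Gabrg3, a GABA receptor subunit, at 743, 471, 178 and 114 CPM, and the potassium channel gene Kcnb2 at 254, 293, 59.3 and 40.8 CPM. None of these 3 passed the threshold of edgeR (adjusted p from 0.131 to 0.190), and the separation of their libraries was a condition of their choice. Kcnb2 also passed the filter through the C57J libraries alone. In microglia Gabrg3 was at 490, 601, 659 and 163 CPM, Kcnb2 at 162, 260, 237 and 77.7 CPM and Luzp2 at 426, 541, 338 and 165 CPM, and in oligodendrocytes they were at 273, 351, 492 and 129 CPM, 97.9, 133, 160 and 46.2 CPM, and 385, 523, 533 and 257 CPM. BALB/c was the lowest library in both classes for the 3 genes, and nude was not low there except for Luzp2 in microglia. In astrocytes and OPCs BALB/c was the lowest for Kcnb2, but nude was the lowest for Luzp2. Luzp2 was at 4530, 3000, 2920 and 3030 CPM in astrocytes and at 1880, 1750, 1430 and 1710 CPM in OPCs. Gabrg3 was lowest in BALB/c in astrocytes (477, 517, 730 and 308 CPM). In OPCs its BALB/c value was above both C57J libraries (523, 594, 867 and 624 CPM). Without the nuclei that pass the neuron rule, the vascular UMIs of Kcnb2 fell from 13, 18, 1 and 5 to 2, 7, 0 and 3, those of Gabrg3 from 38, 29, 3 and 14 to 8, 15, 3 and 10, and those of Luzp2 from 68, 32, 5 and 15 to 21, 25, 2 and 10. As a description, 454 of the tested genes were lower in vascular than in other nuclei over all libraries, and their median log2 fold change was -0.47, whereas the 950 genes that were higher in vascular nuclei had a median of 0.17, beside -0.03 over all 1404 genes. Of the genes with an unadjusted p below 0.05, 65 of the 66 in the first set were lower in the BALB/c background and 42 of the 59 in the second were higher. The level that placed a gene in either set was taken over all 4 libraries, so the change itself helped to place it, and nothing is read from the difference of the sets.

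No gene was called as higher in the BALB/c background. Among the genes higher there whose libraries did not overlap, those with the smallest p were Eps8, Ppm1h, Slc7a1, Elk3, Plxna2 and Golim4. Their adjusted p ran from 0.248 to 0.271 (edgeR). Slc7a1, a carrier of cationic amino acids and a member of the barrier transporter list, was at 235, 276, 593 and 954 CPM in vascular nuclei and at no more than 22.6 CPM in the others. Its log2 fold change was 1.59 (SE 0.48, adjusted p = 0.248, edgeR). Elk3, an ETS factor, was at 78.2, 97.5, 237 and 351 CPM (log2 fold change 1.77, SE 0.56, adjusted p = 0.264, edgeR). Plxna2, a semaphorin receptor, was at 293, 163, 593 and 718 CPM. In each of the 6 genes both libraries of the BALB/c background were above both C57J libraries, which was a condition of their choice. Over all genes tested this separation was found in 22.2%, and the reverse in 14.2%. Eps8, Ppm1h, Elk3 and Golim4 passed the filter through the libraries of the BALB/c background alone, in which they were high.

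By list, 0 of 12 endothelial markers, 0 of 8 mural markers, 0 of 13 barrier transporters, 0 of 9 junction genes, 0 of 7 Wnt genes, 0 of 6 receptor genes, 0 of 11 transcription factors and 0 of 6 basement membrane genes that could be tested were called, against 0.0712% of all genes. The median log2 fold changes were 0.43, 0.17, 0.64, 0.48, 0.28, 0.60, 0.29 and 0.36 in the same order, beside a median of -0.03 over all genes tested. Of the 13 transporters 11 had a value above 0, beside 48.4% of all genes tested. The 950 tested genes that were higher in vascular than in other nuclei had a median of 0.17, with 39.1% below 0. Nothing is therefore read from the medians of the lists. At an unadjusted p below 0.05 there was 1 transporter, 1 Wnt gene, 1 receptor and 1 basement membrane gene, each higher in the BALB/c background, beside 3.06% of all genes tested that were higher and 5.84% that were lower at this p, so nothing is read from these single genes. Of the leukocyte adhesion and antigen presentation genes 0 of 5 were called (median 0.50), and 1, Cd47, was lower at an unadjusted p below 0.05 (log2 fold change -1.51, adjusted p = 0.545, edgeR). The smaller lists gave 0 of 3 PDGF genes (median 0.81), 0 of 2 Notch and ephrin genes (0.14), 0 of 1 venous gene (-0.07) and 0 of 1 contractile gene (-0.71). Among the marker lists of other cells reported here, 0 of 4 neuron genes (median -0.28), 0 of 2 astrocyte genes (-0.93) and 0 of 1 OPC gene (-0.83) were called. The oligodendrocyte list, which holds Mbp, is not reported as a list. Slc1a3, a glutamate transporter of astrocytes, was lower at an unadjusted p below 0.05 (log2 fold change -1.16, adjusted p = 0.545, edgeR), as was Mbp, the myelin basic protein gene, at 293, 503.8, 119 and 81.5 CPM (log2 fold change -2.24, SE 0.57, adjusted p = 0.195, edgeR). Among transporters Slco1c1 had a log2 fold change of 0.66 and Slc2a1 of 0.75, with adjusted p of 0.691 and 0.660 (edgeR). The 6 rule genes chose the nuclei, so no test of them is given.

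Leaving the nude library out, which leaves BALB/c against the 2 C57J libraries, raised the number of calls from 1 to 101 of 2033 genes (4.97%), with 25 higher and 76 lower. In that comparison the single BALB/c library was assumed to vary like the C57J libraries. A gene could also pass the filter through 1 library, and so through the library in which it was high. This way of entering favours calls, so nothing is read from their number or their directions. Of the 76 lower genes, 71 were genes whose level was lower in vascular than in other nuclei, and the 25 higher genes were all above, with the same limit on this split as above. Slc7a1, Elk3, Eps8, Ppm1h, Plxna2 and Golim4 had log2 fold changes of 1.84, 1.91, 1.92, 1.97, 1.62 and 1.63 there. They had been chosen by separation and by p on these same libraries, so the values are no further evidence. Eps8, Ppm1h, Elk3 and Golim4 had also entered the main test through the libraries of the BALB/c background alone. BALB/c was the library with the deepest vascular sum, the lowest level of neuron markers and 1 nucleus that also passed the neuron rule; the part of these in the calls was not tested.

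The difference of the background effect between vascular and other nuclei was tested as an interaction, with the library as a block. Of 1404 genes 2 were called (0.142%), Nxpe4 and Dtna, and 152 had an unadjusted p below 0.05. Both genes passed the filter through the C57J libraries alone, in which they were high, a way of entering that favours a call in this direction. Nxpe4, a neurexophilin and PC-esterase family member, was at 274, 374, 119 and 24.5 CPM in vascular nuclei, from 14, 23, 2 and 3 UMIs, and at 76.7, 76.6, 102 and 97.6 CPM in the others. The C57J vascular nuclei were higher than the other nuclei and those of BALB/c lower, and the interaction was -3.55 on the log2 scale (SE 0.65, adjusted p = 0.0243, edgeR). Dtna encodes alpha-dystrobrevin, a partner of the dystrophin complex that is known from astrocyte endfeet. It was at 332, 390, 59.3 and 40.8 CPM in vascular nuclei and at 360, 364, 345 and 387 CPM in the others (interaction -3.19, SE 0.59, adjusted p = 0.0243, edgeR). Among the other classes, Dtna was at 1730, 1630, 1580 and 1650 CPM in astrocytes, at 360, 354, 347 and 316 CPM in OPCs, at 271, 287, 291 and 274 CPM in neurons, at 433, 477, 411 and 327 CPM in oligodendrocytes and at 273, 250, 135 and 64.0 CPM in microglia, the last from 59, 25, 8 and 42 UMIs. The largest gap between the backgrounds among these classes was that of microglia. Both calls were lost with DESeq2, which called Cntn5 instead, and with another scaling (RLE), neither gene was called without C57J 2 or without BALB/c, and Dtna was not called without C57J 1. The interaction of Dtna was -3.19 with DESeq2 and -3.22 with RLE, and ran from -3.29 to -2.71 with 1 library left out. That of Nxpe4 was -3.42 and -3.58, and ran from -4.06 to -2.04, the weakest value being without BALB/c. Without the nuclei that pass the neuron rule Dtna had 5, 21, 0 and 5 UMIs (155.9, 451.3, 0 and 44.04 CPM). Nxpe4 had 8, 16, 2 and 3 UMIs (249.5, 343.8, 178.8 and 26.43 CPM). Neither passed the filter, whose cutoff was higher without these nuclei, at 254.5 CPM. Nxpe4 was still above the lower cutoff of the main test in C57J 1, C57J 2 and nude. Its failure at the higher cutoff is therefore no evidence that its difference was lost. The astrocyte markers, as given above, were also lower in the vascular nuclei of the BALB/c background, and their part in the Dtna values was not tested.

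Ly6a (chromosome 15), which encodes the surface protein Sca-1, was looked up because it is known, or was seen earlier in these data, to differ between these strains. Its vascular UMIs were 12, 9, 0 and 1, which is 235, 146, 0 and 8.15 CPM. They came from 7, 5, 0 and 1 nuclei, so no single nucleus carried the C57J values, and without the nuclei that pass the neuron rule they were 9, 8, 0 and 1. Both C57J libraries were higher than BALB/c. The 0 of nude allows up to 178 CPM at its depth (3 counts), which is below the level of C57J 1 but above that of C57J 2. It is therefore no evidence of a level below that of C57J 2. Over both libraries of a background, the ratio of C57J to the BALB/c background was 26.0, with an exact counting interval of 4.18 to 1080 that rests on 1 UMI in the lower group. Ly6a was too low for the filter of the main test. When every gene with a UMI was tested (13838 genes), its log2 fold change was -4.25 (SE 1.10, adjusted p = 0.379, edgeR), and the 2 genes called (0.0145%), Hbb-bs and Hba-a1, were those of the 1 nucleus with red cell RNA.

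Outside the vessels Ly6a went the other way. In the other nuclei it was at 0.297, 0.124, 0.867 and 1.21 CPM, from 29, 9, 71 and 143 UMIs, with a log2 fold change of 2.26 (SE 0.46, adjusted p = 0.0873, edgeR) that did not pass the threshold. Most of the BALB/c UMIs lay in oligodendrocyte nuclei, which held 1, 0, 7 and 77 UMIs (0.441, 0, 7.99 and 13.8 CPM), while neurons held 0.290, 0.125, 0.571 and 0.325 CPM. The opposite directions differed in the interaction test over all genes with a UMI (log2 -7.08, SE 1.51, adjusted p = 0.0203, edgeR), in which 5 of 13838 genes were called (0.0361%). The interaction was -7.07 on the log2 scale without nude. Without BALB/c the interaction did not pass the threshold, and its value of -17.6 there has no fixed size, because nude held 0 vascular UMIs. Ly6a entered both of these fits through C57J 1 alone, in which it was high, so the values are no further evidence. Ly6a belongs to a family of similar neighbouring genes, and how reads were divided among them in each strain was not tested.

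Its neighbour Ly6c1 showed no such pattern. Its vascular UMIs were 31, 18, 2 and 117, or 606, 293, 119 and 954 CPM, and the libraries of the backgrounds overlapped (log2 fold change 0.50, SE 0.58, adjusted p = 0.868, edgeR). Ly6c1 was low in the other nuclei of each library, at 0.208 to 0.582 CPM. Ly6e was at 391, 179, 297 and 122 CPM in vascular nuclei, also overlapping. Ebf1, the mural marker with the most UMIs, had a log2 fold change of 0.29 (SE 0.48, adjusted p = 0.918, edgeR), with its levels given above.

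Tek, the angiopoietin receptor TIE2 of endothelial cells, was called in the interaction over all genes with a UMI (log2 2.31, SE 0.49, adjusted p = 0.0203, edgeR) but not among the filtered genes (log2 2.00, SE 0.62, adjusted p = 0.247, edgeR). In vascular nuclei it was at 293, 293, 237 and 481 CPM, and the backgrounds overlapped (log2 fold change 0.41, SE 0.48, adjusted p = 0.868, edgeR). In the other nuclei it was at 3.50, 6.17, 1.70 and 1.47 CPM, so that both C57J libraries were higher, and most of these UMIs were in neurons (285, 360, 117 and 135 UMIs). There the log2 fold change was -1.59 (SE 0.31, adjusted p = 0.0782, edgeR), which did not pass the threshold.

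Foxn1, the gene that is defective in nude mice, had 0 UMIs in the vascular nuclei of every library and 6, 2, 5 and 5 UMIs in all other nuclei, so it did not check the nude label. Nude and BALB/c vascular nuclei, with 1 library each, are given by their values alone.

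**Figure D5:**
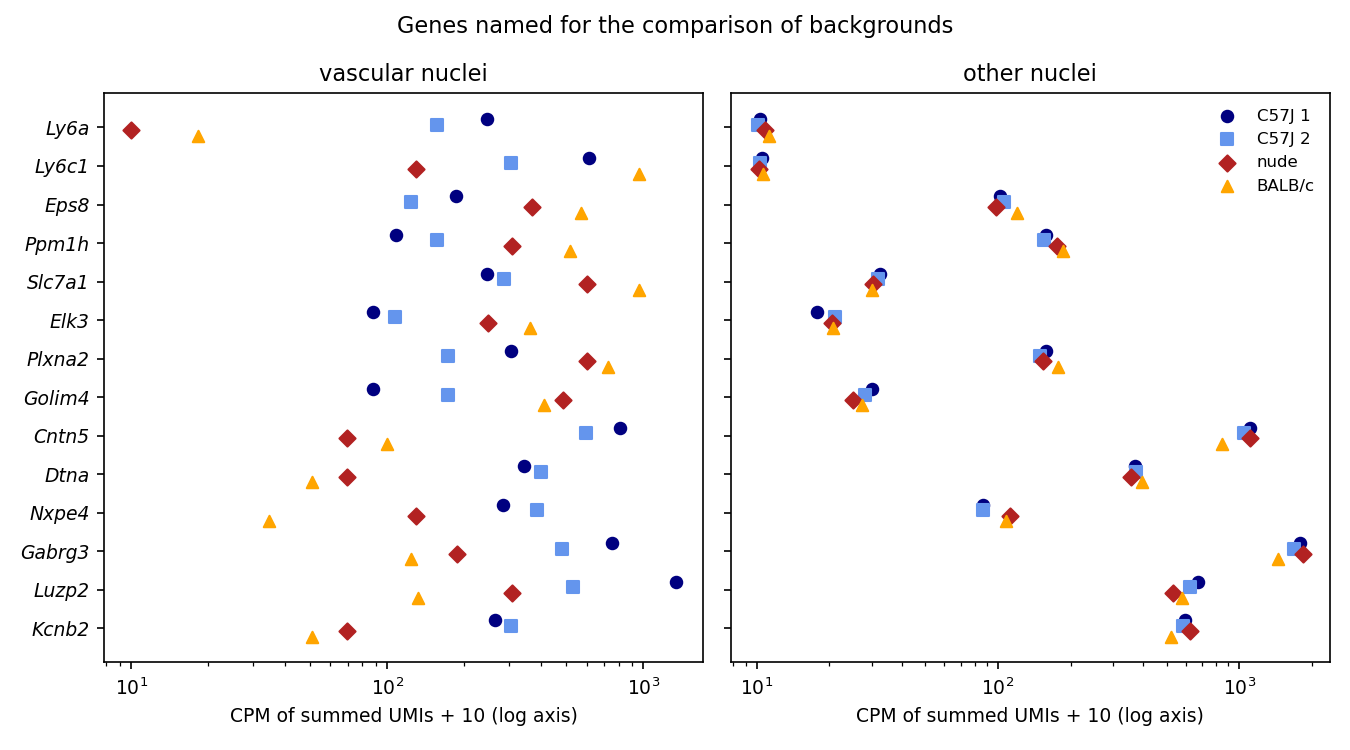
Levels in vascular nuclei (left) and all other nuclei (right) of 14 genes (y axis) in CPM of summed UMIs + 10 (x axis, log axis), with 1 symbol per library. Ly6a and the 6 lowest rows are higher in both C57J libraries than in nude and BALB/c in vascular nuclei, while the 6 rows from Eps8 to Golim4 are lower, and in the other nuclei the 4 libraries lie close together for most genes. For Ly6a the nude value is 0 UMIs, which allows up to 178 CPM and is no evidence of a level below that of C57J 2.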

How the data were processed

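Nuclei of frozen LS tissue were sequenced with 10x Genomics 3′ chemistry. Reads were mapped by the authors to mm10 (Cell Ranger 7.0.1), who deposited raw UMI counts of 32285 genes for the barcodes called as nuclei, with no normalization applied. The treatment of intronic reads is not given in the sources used here. The libraries held 102939576, 72912922, 82169638 and 125998527 UMIs in 17025, 14092, 14697 and 12558 barcodes (C57J 1, C57J 2, nude, BALB/c). The members and the gene lists were chosen with earlier results of these data known.

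UMIs were summed per library over vascular and over other nuclei and tested with edgeR 4.0.16 in R 4.3.3 (filterByExpr, TMM, quasi-likelihood test), 2 libraries against 2, with DESeq2 1.42.0 as an alternative; the test was tried on simulated counts. P-values measure the spread between pooled libraries. Shares carry Clopper-Pearson intervals (scipy 1.17.1), and PCR errors in UMIs were not modelled. Doublets were predicted from 2 simulated doublets per nucleus at 0.8% per 1000 nuclei. Named were the rule genes, up to 4 abundant members of a list, the 15 genes of highest lowest fold, Foxn1, Ly6a, Ly6c1 and Ebf1. Of the genes whose libraries did not overlap between the backgrounds, the 6 higher and 6 lower ones of smallest p were also named. Pecam1, Cdh5, Vtn, Pdgfb, Mgp, Ly6e, Tek and the red cell genes were named after their values were seen. The summed levels of 2 marker lists of other cell types are not reported here. Gene positions follow GENCODE vM21.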

Additional observations from a re-analysis of the deposited data

Results flagged for a closer look

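Results were flagged where the effect of background differed between vascular and other nuclei by the interaction test, or where a signal lay in barcodes outside the comparison. In the filtered genes these were Nxpe4 (log2 -3.55) and Dtna (log2 -3.19). Both passed the filter through the C57J libraries alone, and their values in each library and the settings that lost the calls are given above. Over all genes with a UMI they were Ly6a (log2 -7.08), Tek (log2 2.31), Nxpe4 (log2 -3.38), Hs6st3 (log2 -2.68) and Gpc5 (log2 -2.42). Hs6st3, a heparan sulfate sulfotransferase, was at 1520, 260, 474 and 73.4 CPM in vascular nuclei of C57J 1, C57J 2, nude and BALB/c, and the backgrounds overlapped, as C57J 2 lay below nude. The 78 Hs6st3 UMIs of C57J 1 were all in nuclei that also passed the neuron rule, without which it had 0, 11, 5 and 9 UMIs. Gpc5, a glypican that is abundant in astrocytes, was at 1450, 1380, 652 and 147 CPM there and at 1080, 970, 916 and 1060 CPM in the other nuclei. BALB/c was also the lowest library for Gpc5 in microglia (759, 811, 862 and 250 CPM) and oligodendrocytes (479, 588, 675 and 187 CPM), whereas nude was the highest there. In OPCs BALB/c was the highest (4140, 3520, 3870 and 4460 CPM), and in astrocytes C57J 2 was the lowest (9090, 6960, 7480 and 7750 CPM).

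In C57J 1, 9 barcodes met the vascular rule but exceeded the mitochondrial limit, against 0 in each of the other libraries. With them C57J 1 held 23 vascular nuclei, a share of 0.135%.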

How the results depend on the processing

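The share of vascular nuclei moved beyond its interval in few settings. At 0.5% of UMIs C57J 2 fell to 0.149%. With predicted doublets removed C57J 2 fell to 0.016% and BALB/c to 0.00916%, and the split gave 21 endothelial and 1 mural nuclei. Without nuclei that also pass another class rule nude fell to 0.0279%. The stricter split (2 UMIs of one gene, 0 of the other) left 1 mural nucleus.

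In vascular nuclei DESeq2, RLE scaling, removal of doublets (132 genes tested), removal of nuclei of another class, 6 UMIs in the rule and no mitochondrial limit (chosen after seeing the data) gave 0 called genes each, every gene with a UMI gave 2, and leaving out 1 library gave 0 to 101. The interaction gave 1 gene with DESeq2, 0 with RLE, 5 over all genes with a UMI, 1 with doublets removed, and 0 to 73 with 1 library left out. Other nuclei gave 790 genes with DESeq2 and 73 to 240 with 1 library left out. The cause of these moves was not tested, except that fewer nuclei and genes entered some fits. With 1 library left out a gene could pass the filter through 1 library, and more genes were tested than in the reported fits.

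Cntn5 was lower in the 15 settings in which it was tested, the reported one included (log2 -4.29 to -2.74), and its adjusted p ranged from 2.34e-05 to 0.672 and was below 0.05 in 7, of which 3, the reported one included, have the same value. Without nuclei of another class it was not tested, as it did not pass the filter. With 1 library left out, Ly6c1 ran from -2.00 to 1.06 (interaction -1.17 to 0.541) and Ebf1 from -0.175 to 0.576 (interaction -0.0977 to 0.777), and Ebf1 was at -0.0525 without nuclei of another class. Libraries of the backgrounds came from different mice and could not be paired with each other. Only the interaction test was paired, as it set vascular beside other nuclei of the same library. The 16861 vascular UMIs of nude limit what its values can show.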
